A study of Mus musculus with 12 samples.

Results

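Ncam1, L1cam, Nrcam, Vcam1, Icam1, Alcam and Mcam encode adhesion molecules of the cell surface whose outer part is built from immunoglobulin-type domains. These 7 genes were taken by symbol from the 14097 genes listed in all 5 of the deposited comparison tables. They were selected on the fold changes and p-values of those tables, which were known when the choice was made, so the values below describe the genes, and the p-values printed for them are the authors' and support nothing further. The cultures were MC38 tumours, a mouse colon carcinoma grown in C57BL/6 albino mice, which were dissociated to fragments of 40 to 100 µm, embedded in collagen at 2.8 mg/mL in a 3-D culture chip and treated for 6 days. The 12 samples formed 4 groups of 3. The control group (IgG) received the control antibody clone 2A3 at 10 µg/mL. The aPD-1 group received the PD-1 antibody clone RMP1-14 at 10 µg/mL, with no control antibody named beside it. The aPD-1+CD8 group received RMP1-14 and the CD8 antibody clone 53-6.7, each at 10 µg/mL. The IFNg group received interferon-gamma protein at 100 ng/mL, with no antibody named. Fragments hold whatever host cells the tumour had, and the series concerns the tumour cells that remain after PD-1 blockade. Nothing in the labels says whether the 3 samples of a group were separate animals or cultures, so each p-value rests on a spread between samples that may be purely technical.

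Adhesion molecules of this family bind a copy of themselves or a partner on a neighbouring cell, and their short inner part is tied to the actin or spectrin skeleton. Ncam1, L1cam and Nrcam are best known from neurons and glia, where they guide the growth of nerve fibres, and Ncam1 is also carried by many mesenchymal cells. Vcam1 and Icam1 are the surfaces on which leukocytes settle, through the integrins VLA-4 and LFA-1, and both are textbook targets of NF-kB, while Icam1 is also a target of interferon-gamma. Alcam binds CD6 on T cells or another Alcam, and Mcam is known from vessel walls and melanoma.

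The tables hold finished comparisons with no column for a single sample, so no spread over single samples can be given. The mean normalized counts of a table summed to between 10292900 and 11590700, of which the ribosomal RNA gene Rn45s took 27.8% to 29.6%. The mean over libraries of 2 equal groups gives each group's level once 3 linked comparisons are solved together. Levels below are such group mean normalized counts, after each table was put on a common scale, a step chosen after seeing the data. The 2 ways of linking the tables then gave levels of these 7 genes that differed by at most 3.74%. Levels are not per length, so each is compared only with the same gene in another group. RNA came from whole cultures, in which fewer cells of a type and less RNA per cell cannot be told apart. Epithelial markers were close to 0, with a mean count of 0.15 for Epcam and 2.49 for Krt8 in the authors' deposited table for aPD-1 v IgG. Of 10 epithelial markers listed there, 3 had an adjusted p. Among these 0 rose and 1 fell at an adjusted p under 0.05, beside 8.50% and 10.0% of all genes. The 1 that fell was Krt19, with a mean count of 3.68 and a log2 fold change of -1.07 ± 0.38 (DESeq2 adjusted p = 0.028).

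Ncam1, the neural cell adhesion molecule, was the member with the widest range. Its level was 387 in IgG, 3394 in aPD-1, 390 in aPD-1+CD8 and 166 in IFNg. The aPD-1 group thus stood 8.76-fold above IgG, 8.70-fold above aPD-1+CD8 and 20.4-fold above IFNg. Ncam1 rose in the authors' deposited table for aPD-1 v IgG by a log2 fold change of 2.98 ± 0.17 (SE), with a DESeq2 adjusted p of 1.5e-67. That was the 24th highest log2 fold change and the 8th smallest p among 12024 genes with an adjusted p. Its log2 fold change in the authors' deposited table for aPD-1+CD8 v aPD-1 was -2.94 ± 0.21, with a DESeq2 adjusted p of 8.6e-43. The authors' deposited table for aPD-1+CD8 v IgG gave -0.01 ± 0.11, with a DESeq2 adjusted p of 0.9998. The authors' test did not separate these 2 groups, which does not show that they were equal, and the fold changes of that table look strongly shrunken. With the mean counts as deposited, before the common scale, the 2 levels came out at 629 in IgG and 119 in aPD-1+CD8.

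Interferon-gamma was followed by less Ncam1 RNA than the control antibody. The authors' deposited table for IFNg v IgG gave a log2 fold change of -1.13 ± 0.17 for Ncam1, with a DESeq2 adjusted p of 3.3e-09, and the solved level was 2.33-fold higher in IgG than in IFNg. Against aPD-1, the authors' deposited table for IFNg v aPD-1 gave -4.19 ± 0.21, with a DESeq2 adjusted p of 5.4e-85, the 6th lowest log2 fold change of 12260 genes. The order of Ncam1 levels was therefore aPD-1, then aPD-1+CD8 and IgG, which the authors' test did not separate, then IFNg. The authors' tables hold no comparison of aPD-1+CD8 with IFNg. An antisense gene, Gm11149, overlaps Ncam1 in GENCODE M21, and the sources used here do not say whether counting used strand. Gm11149 had a mean count of 12.2 in the authors' deposited table for aPD-1 v IgG. Its log2 fold change there was 0.39 ± 0.29, with a DESeq2 adjusted p of 0.41. Its mean count was 10.8 in aPD-1+CD8 v aPD-1 and 10.9 in IFNg v aPD-1, but 1.43 in aPD-1+CD8 v IgG and 0.70 in IFNg v IgG. The mean counts were thus higher wherever the aPD-1 group took part, as for Ncam1, and the deposited fold change looks shrunken. Whether the Gm11149 and Ncam1 counts share reads was not tested.

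**Figure D1:**
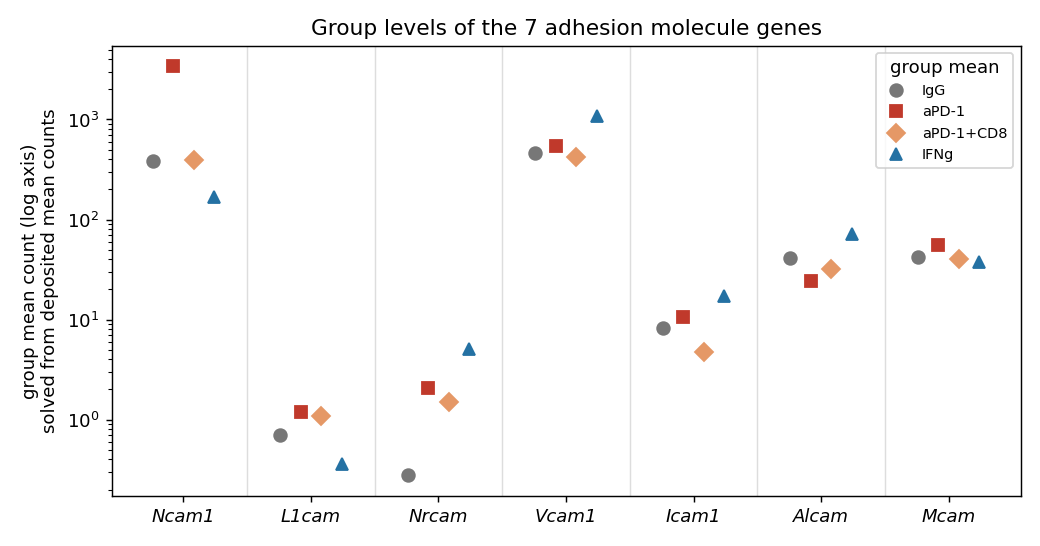
Group mean normalized counts (log axis) of the 7 adhesion genes in the 4 groups, solved from the deposited mean counts on a common scale; each point is 1 group and no error can be given. Ncam1 stood at 3394 in aPD-1 against 387 in IgG, and Vcam1 at 1079 in IFNg against 461 in IgG.

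Genes that mark fibroblasts moved in the same comparisons as Ncam1, and their part in the Ncam1 values was not tested. Of 14 fibroblast markers, 13 were listed in the authors' deposited table for aPD-1 v IgG and 10 had an adjusted p. Among these 6 rose and 0 fell at an adjusted p under 0.05, beside 8.50% and 10.0% of all genes. The summed level of the 13 was 4378 in IgG, 12410 in aPD-1, 3973 in aPD-1+CD8 and 3061 in IFNg. The markers Lum, Postn and Mfap5 stood at or under 2.73 in every group. In the authors' deposited table for aPD-1+CD8 v aPD-1, 10 of the 13 had an adjusted p. Among these 0 rose and 6 fell, beside 7.82% and 6.94% of all genes. In IFNg v aPD-1 10 had one, 0 rose and 7 fell, beside 8.39% and 7.13% of all genes. The IFNg v IgG comparison was mixed. There 9 had an adjusted p, 1 rose and 4 fell, beside 2.73% and 1.38% of all genes. Markers of nerve and Schwann cells, the other cells best known for Ncam1, summed to 2040 in IgG, 2304 in aPD-1, 1811 in aPD-1+CD8 and 3085 in IFNg. Most of that sum was Tubb3, at 1817 in IgG and 2094 in aPD-1, which rose in the authors' deposited table for IFNg v IgG. The glial factor Sox10 stood at 9.79 in IgG, 7.05 in aPD-1, 2.85 in aPD-1+CD8 and close to 0 in IFNg, and fell in both IFNg comparisons (DESeq2 adjusted p = 0.021 against IgG and 0.027 against aPD-1). The myelin gene Pmp22 stood at 13.7 in IgG, 62.1 in aPD-1, 11.04 in aPD-1+CD8 and 1.67 in IFNg, highest in aPD-1 and lowest in IFNg as for Ncam1. It was called in the same 4 comparisons as Ncam1 and in the same directions, with a DESeq2 adjusted p of 0.028 in IFNg v IgG. Of the 14 nerve markers listed in the authors' deposited table for aPD-1 v IgG, 7 had an adjusted p. Among these 1 rose, Pmp22, and 1 fell, beside 8.50% and 10.0% of all genes. T and NK cell markers summed to 2.52 in IgG, 2.80 in aPD-1, 2.09 in aPD-1+CD8 and 10.8 in IFNg. That sum covers the 3 of 16 listed in all tables. Lck made up 10.5 of the sum in IFNg and rose in the authors' deposited table for IFNg v aPD-1 (DESeq2 adjusted p = 0.044).

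Markers of mural cells, which wrap vessels, summed to 1032 in IgG, 800 in aPD-1, 956 in aPD-1+CD8 and 717 in IFNg. Of 10 listed in the authors' deposited table for aPD-1 v IgG, 7 had an adjusted p. Among these 1 rose, Notch3 at 1.45, and 2 fell, Myh11 at -2.28 and Cspg4 at -0.88, beside 8.50% and 10.0% of all genes. Of 9 listed in the authors' deposited table for IFNg v IgG, 7 had an adjusted p. Among these 1 rose, Acta2 at 1.19, and 3 fell, Cspg4 at -1.68, Myh11 at -1.30 and Des at -0.93. Over all genes of that comparison 2.73% rose and 1.38% fell. Of 10 listed in the authors' deposited table for IFNg v aPD-1, 6 had an adjusted p. Among these 0 rose and 3 fell, beside 8.39% and 7.13% of all genes. The part of nerve, T, NK and mural cells in the Ncam1 values was not tested either.

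L1cam and Nrcam, both of the L1 family of nerve fibre adhesion molecules, were hardly detected. L1cam levels were 0.69 in IgG, 1.19 in aPD-1, 1.09 in aPD-1+CD8 and 0.36 in IFNg. Nrcam levels were 0.28 in IgG, 2.05 in aPD-1, 1.51 in aPD-1+CD8 and 5.06 in IFNg. With so few counts the order of these levels is not readable. Neither gene reached an adjusted p under 0.05 in any table. L1cam had an adjusted p only in aPD-1+CD8 v IgG, and Nrcam only there and in IFNg v aPD-1. The smallest unadjusted p of the pair was that of Nrcam in the authors' deposited table for IFNg v IgG, at 0.029 for a log2 fold change of 0.45 ± 0.20 by DESeq2.

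Vcam1, the docking molecule for VLA-4 integrin, was highest in IFNg. Its level was 461 in IgG, 541 in aPD-1, 424 in aPD-1+CD8 and 1079 in IFNg. Vcam1 rose in the authors' deposited table for IFNg v IgG by a log2 fold change of 1.03 ± 0.20, with a DESeq2 adjusted p of 2.6e-05. It rose in that of IFNg v aPD-1 by 0.95 ± 0.22, with a DESeq2 adjusted p of 0.00019. That second call was lost when scores were set against their own robust SD, and when a log2 change of at least 1 was asked for. The 3 antibody groups lay within a narrower range: the authors' deposited table gave 0.20 ± 0.20 for aPD-1 v IgG (DESeq2 adjusted p = 0.58) and -0.32 ± 0.23 for aPD-1+CD8 v aPD-1 (DESeq2 adjusted p = 0.42). These 3 groups were not separated by the authors' test, which does not show that they were equal.

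The partner chains of Vcam1, and the markers of cells that go with it, ranged from hardly detected to abundant. Itga4, the alpha chain of VLA-4, had a mean count of 0.73 in the authors' deposited table for aPD-1 v IgG and 1.61 in that of IFNg v IgG. Its beta chain Itgb1, shared by many integrins, had a mean count of 6155 in the authors' deposited table for IFNg v IgG, with a log2 fold change of -0.35 ± 0.12 and a DESeq2 adjusted p of 0.10. Endothelial markers, from the cells best known for Vcam1, summed to 138 in IgG, 201 in aPD-1, 136 in aPD-1+CD8 and 229 in IFNg. The defining endothelial gene Pecam1 was at 1.56 or less in every group, while Cdh5, the endothelial cadherin, was at 25.8 in IgG, 84.0 in aPD-1, 26.4 in aPD-1+CD8 and 49.1 in IFNg, and Eng at 73.4 in IgG and 130.1 in IFNg. Cdh5 rose in the authors' deposited table for aPD-1 v IgG, at 1.49 ± 0.28, and fell in that for aPD-1+CD8 v aPD-1, at -1.42 ± 0.31. In IFNg v IgG 0 of the 13 endothelial markers listed passed by DESeq2, 1 having an unadjusted p under 0.05. Of the 13, 4 had an adjusted p, and over all genes there 2.73% rose and 1.38% fell. Macrophage markers summed to 237 in IgG, 205 in aPD-1, 215 in aPD-1+CD8 and 508 in IFNg. Csf1r alone accounted for 342 of the 508, and its p-value was left empty in both IFNg comparisons. Of 11 macrophage markers with an adjusted p in IFNg v IgG, 0 rose and 1 fell, beside 2.73% and 1.38% of all genes. The 1 that fell was Mrc1, at -1.29 ± 0.28 (DESeq2 adjusted p = 0.00020), with a level of 22.7 in IgG and 1.84 in IFNg. The part of these cells in the Vcam1 values was not tested.

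Icam1, the docking molecule for LFA-1 integrin, had low counts and did not reach an adjusted p under 0.05 in any comparison. Its level was 8.29 in IgG, 10.6 in aPD-1, 4.78 in aPD-1+CD8 and 17.1 in IFNg. The level was highest in IFNg, but the authors' deposited table for IFNg v IgG gave a log2 fold change of 0.50 ± 0.28, with a 95% normal interval of -0.05 to 1.05 and a DESeq2 adjusted p of 0.52. The chains of its partner LFA-1 were also low, with mean counts of 5.61 for Itgal and 15.1 for Itgb2 in the same table. Icam1 is shown with its promoter because NF-kB and the STAT family of factors have short recognition motifs that can be read there. The window from 250 bases before to 50 bases after the start site comes from RefSeq on GRCm38.p6, the plus strand of chr9:21015690-21015989, and the capitals mark motif matches.

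Icam1: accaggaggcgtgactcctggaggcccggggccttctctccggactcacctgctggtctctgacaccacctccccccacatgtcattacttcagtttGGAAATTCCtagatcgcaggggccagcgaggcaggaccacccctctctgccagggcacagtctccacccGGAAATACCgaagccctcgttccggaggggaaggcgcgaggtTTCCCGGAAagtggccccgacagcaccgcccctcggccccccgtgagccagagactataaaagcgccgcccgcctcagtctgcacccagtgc

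The STAT dimer motif TTCNNNGAA matched once, as TTCCCGGAA at bases 209 to 217 of the window. The kappa-B motif GGNNNTTCC matched at bases 98 to 106 as GGAAATTCC and, on the other strand, at bases 167 to 175, printed as GGAAATACC. Both strands were searched and the matches did not overlap. Of 32851 RefSeq mouse promoter windows of the same length, 8.30% held the STAT motif and 18.5% the kappa-B motif. A match describes the letters only and shows no binding.

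Alcam, the activated leukocyte cell adhesion molecule, was lowest in aPD-1 and highest in IFNg. Its level was 40.9 in IgG, 24.5 in aPD-1, 32.0 in aPD-1+CD8 and 71.0 in IFNg. Alcam rose in the authors' deposited table for IFNg v aPD-1 by a log2 fold change of 1.17 ± 0.43, with a DESeq2 adjusted p of 0.040, and the solved levels differed by 2.90-fold. The call was lost at an adjusted p under 0.01, without the filter on low mean counts, and when scores were set against their own robust SD. Neither step against the control passed on its own. The authors' deposited table gave -0.61 ± 0.31 for aPD-1 v IgG (DESeq2 adjusted p = 0.17) and 0.41 ± 0.28 for IFNg v IgG (DESeq2 adjusted p = 0.665). Its T cell partner Cd6 had a mean count of 0.14 in the authors' deposited table for IFNg v aPD-1. The RefSeq promoter window of Alcam, on the minus strand of chr16:52453032-52453331 (GRCm38.p6), is shown beside that of Icam1 because both genes had their highest level in IFNg. Vcam1 was also highest there but had no window at hand. Nrcam had its highest level there too, at counts too low for the order to be read.

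Alcam: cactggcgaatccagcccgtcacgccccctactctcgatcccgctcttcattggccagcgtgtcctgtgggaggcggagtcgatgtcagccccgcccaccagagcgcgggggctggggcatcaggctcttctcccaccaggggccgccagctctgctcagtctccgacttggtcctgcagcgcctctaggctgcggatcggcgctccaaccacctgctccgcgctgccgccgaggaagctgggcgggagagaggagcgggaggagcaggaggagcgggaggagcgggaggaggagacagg

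No letters are capitalised in the Alcam window, since it held no match to TTCNNNGAA, GGNNNTTCC or the interferon-stimulated response motif GAAANNGAAA, which 3.44% of the 32851 windows held. No match says only that these letters are not in this window. RefSeq windows were at hand for 5 of the 7 genes: Icam1, L1cam, Alcam, Mcam and Nrcam. Of these, Icam1 alone held a match to any of the 3 motifs.

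Mcam, the melanoma cell adhesion molecule, varied least. Its level was 42.1 in IgG, 55.3 in aPD-1, 40.7 in aPD-1+CD8 and 37.4 in IFNg, so that aPD-1 stood 1.31-fold above IgG. It did not pass in any table. Its log2 fold change was 0.30 ± 0.30 in the authors' deposited table for aPD-1 v IgG and -0.48 ± 0.35 in that of IFNg v aPD-1, with DESeq2 adjusted p-values of 0.568 and 0.435.

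**Figure D2:**
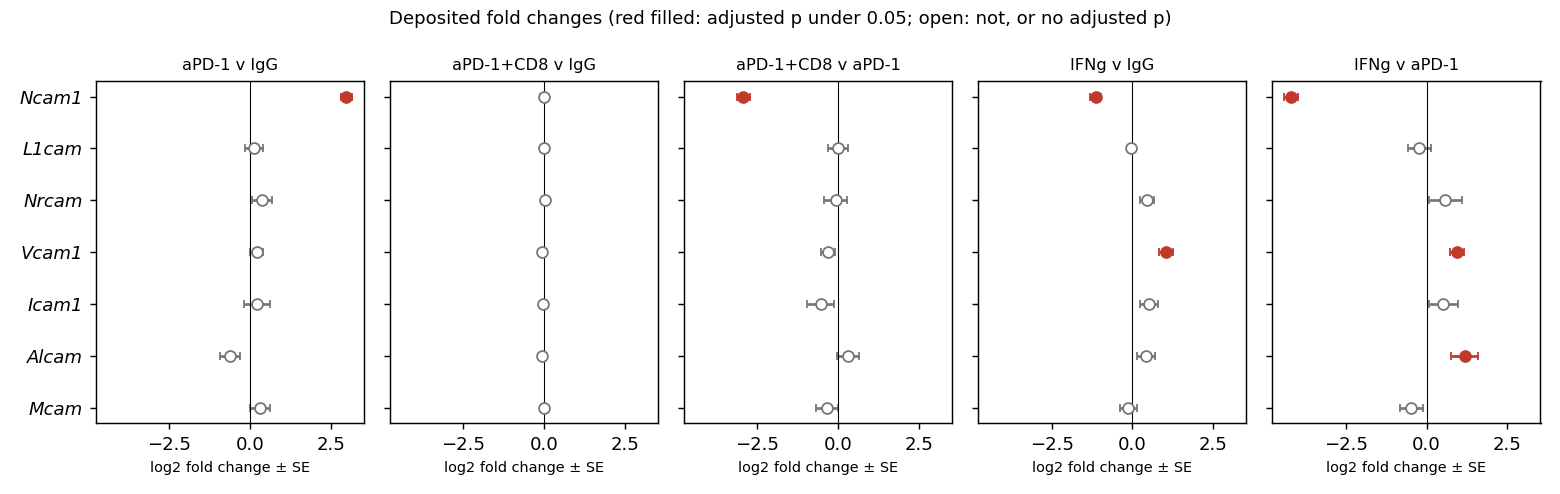
Deposited log2 fold changes (x axis) with their standard errors for the 7 adhesion genes in the 5 comparisons of the authors; filled red points have an adjusted p under 0.05. Ncam1 was called in 4 comparisons, Vcam1 in 2 and Alcam in 1, and every point of aPD-1+CD8 v IgG lay near 0. The fold changes of aPD-1+CD8 v IgG look strongly shrunken, so points near 0 do not show that the groups were equal.

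Counted over the 7 genes, few were called in each comparison, and the counts are set beside the share of all genes with an adjusted p. In the authors' deposited table for aPD-1 v IgG, 5 of the 7 had an adjusted p, of which 1 rose (Ncam1) and 0 fell; over all 12024 genes 8.50% rose and 10.0% fell. In that of aPD-1+CD8 v IgG all 7 had one and 0 passed in either direction, and 0% of 15304 genes rose and 0% fell; by DESeq2 0 of the 7, and 57 of all genes, had an unadjusted p under 0.05. In that of aPD-1+CD8 v aPD-1, 5 had one, 0 rose and 1 fell (Ncam1), against 7.82% higher and 6.94% lower among 11560 genes. In that of IFNg v IgG, 5 had one, 1 rose (Vcam1) and 1 fell (Ncam1), against 2.73% higher and 1.38% lower among 11478 genes. In that of IFNg v aPD-1, 6 had one, 2 rose (Vcam1 and Alcam) and 1 fell (Ncam1), against 8.39% higher and 7.13% lower among 12260 genes. The tables share groups, and the rule used them, so nothing is read from these counts. The median log2 fold change of the 7 was 0.22 in aPD-1 v IgG, where that of all tested genes was 0.01, and 0.41 in IFNg v IgG, where that of all tested genes was also 0.01.

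Other adhesion molecules of the immunoglobulin type made a list of 39 symbols, counting older names. Of 33 listed in the authors' deposited table for aPD-1 v IgG, 17 had an adjusted p, of which 4 rose and 1 fell, beside 8.50% and 10.0% of all genes. Robo1, a receptor for the guidance protein Slit, rose by a log2 fold change of 1.25 ± 0.20, and Pvrl1, the adherens junction protein nectin-1, by 1.18 ± 0.29. Mpzl1 fell, at -0.89 ± 0.18. Of 31 listed in the authors' deposited table for IFNg v aPD-1, 19 had an adjusted p. Among these 1 rose and 4 fell, with Sdk1 at -1.86 and Robo1 at -1.30, beside 8.39% and 7.13% of all genes. In IFNg v IgG 14 of 31 had an adjusted p and 0 passed by DESeq2, and 1 of the 31 had an unadjusted p under 0.05. Over all genes there 2.73% rose and 1.38% fell. The median log2 fold change of the listed genes was 0.08 in aPD-1 v IgG, beside 0.01 for all tested genes.

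The partners that bind these molecules from outside made another list. Of 17 integrin chains and other partners listed in the authors' deposited table for aPD-1 v IgG, 15 had an adjusted p. Among these 2 rose and 2 fell, beside 8.50% and 10.0% of all genes. Nrp1, a co-receptor of L1cam, rose by a log2 fold change of 1.67, and Itga5, the fibronectin receptor chain, by 1.02, while Lgals3 and Itgax stood at -1.28 and -1.25. In the authors' deposited table for IFNg v IgG, 12 of the 17 had an adjusted p. Among these 0 rose and 1 fell, Nrp1 at -0.86, beside 2.73% and 1.38% of all genes. The selectins and their ligand, which act before Icam1 and Vcam1 in leukocyte capture, were scarce: in aPD-1 v IgG the mean count of 0 of 3 listed genes reached 10, and by DESeq2 0 were called and 0 had an unadjusted p under 0.05 in any table. In aPD-1 v IgG only 1 of the 3 had an adjusted p, beside 8.50% of all genes higher and 10.0% lower. In aPD-1+CD8 v IgG 3 had one, and in each other comparison 1.

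Of 14 proteins that link the inner part of these molecules to the cell skeleton or to signalling, all had an adjusted p in the authors' deposited table for aPD-1 v IgG, where 1 rose and 6 fell, beside 8.50% and 10.0% of all genes. The other 7 did not pass, Msn at 0.09 ± 0.15 among them, and the median log2 fold change was -0.25 against 0.01 for all tested genes. Ezr, which ties Icam1 and other surface proteins to actin, fell, at -1.41 ± 0.14, and so did Ank2, an ankyrin that binds the L1 family, at -1.44 ± 0.15. Gap43, a growth cone protein that acts in Ncam1 signalling, rose by 1.85 ± 0.41. In the authors' deposited table for aPD-1+CD8 v aPD-1, 3 rose and 1 fell, beside 7.82% and 6.94% of all genes. Ezr stood at 1.45, Ank2 at 1.38 and Gap43 at -1.75. The comparisons share the aPD-1 group, so these are the same libraries seen from the other side. In IFNg v IgG 13 of the 14 had an adjusted p and 0 passed by DESeq2, and 2 of the 14 had an unadjusted p under 0.05. Over all genes there 2.73% rose and 1.38% fell.

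Of 9 listed enzymes that can cut adhesion molecules from the surface or add polysialic acid, 8 had an adjusted p in the authors' deposited table for aPD-1 v IgG, where 4 rose and 0 fell, beside 8.50% and 10.0% of all genes. The matrix protease Mmp2 rose by a log2 fold change of 4.28 ± 0.19, its activator Mmp14 by 1.45 ± 0.13, and the sheddases Adam17 and Adam10 by 0.52 ± 0.15 and 0.46 ± 0.14. Against aPD-1, Mmp2 fell in the authors' deposited table for aPD-1+CD8 v aPD-1, at -4.72, and in that of IFNg v aPD-1, at -3.48. In aPD-1 v IgG, Mmp9, at 0.46 ± 0.34, Bace1, at 0.25 ± 0.17, and Plau, at -1.05 ± 0.41, were not called. St8sia4, which adds the polysialic acid chains of Ncam1, had a mean count of 2.96 in aPD-1 v IgG and did not pass, with a log2 fold change of -0.59 ± 0.38.

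The regulators named for Vcam1 and Icam1 were examined as 2 further lists. Of 27 listed NF-kB regulators and targets in the authors' deposited table for aPD-1 v IgG, 24 had an adjusted p. Among these 15 rose and 2 fell, beside 8.50% and 10.0% of all genes. Lif led at a log2 fold change of 3.59, followed by Ptgs2 at 3.06 and Sod2 at 2.06. Vcam1 and Icam1 did not pass in that comparison, with 0.20 ± 0.20 and 0.22 ± 0.40. In the authors' deposited table for IFNg v IgG, 21 of the 27 had an adjusted p. Among these 7 rose and 0 fell, led by Ccl5 at 2.78 and Ccl2 at 1.71, beside 2.73% and 1.38% of all genes. Of 33 interferon-gamma targets, 32 had an adjusted p in that table, where 29 rose and 0 fell beside the same shares. Gbp2 stood at 4.93, Gbp3 at 3.35 and Irf1 at 2.48. The median of the 33 was 1.83, and Vcam1, at 1.03 ± 0.20, lay under it. In the authors' deposited table for aPD-1 v IgG, 27 of the 33 targets had an adjusted p. Among these 2 rose and 12 fell, with Gbp3 at -1.65, beside 8.50% and 10.0% of all genes.

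**Figure D3:**
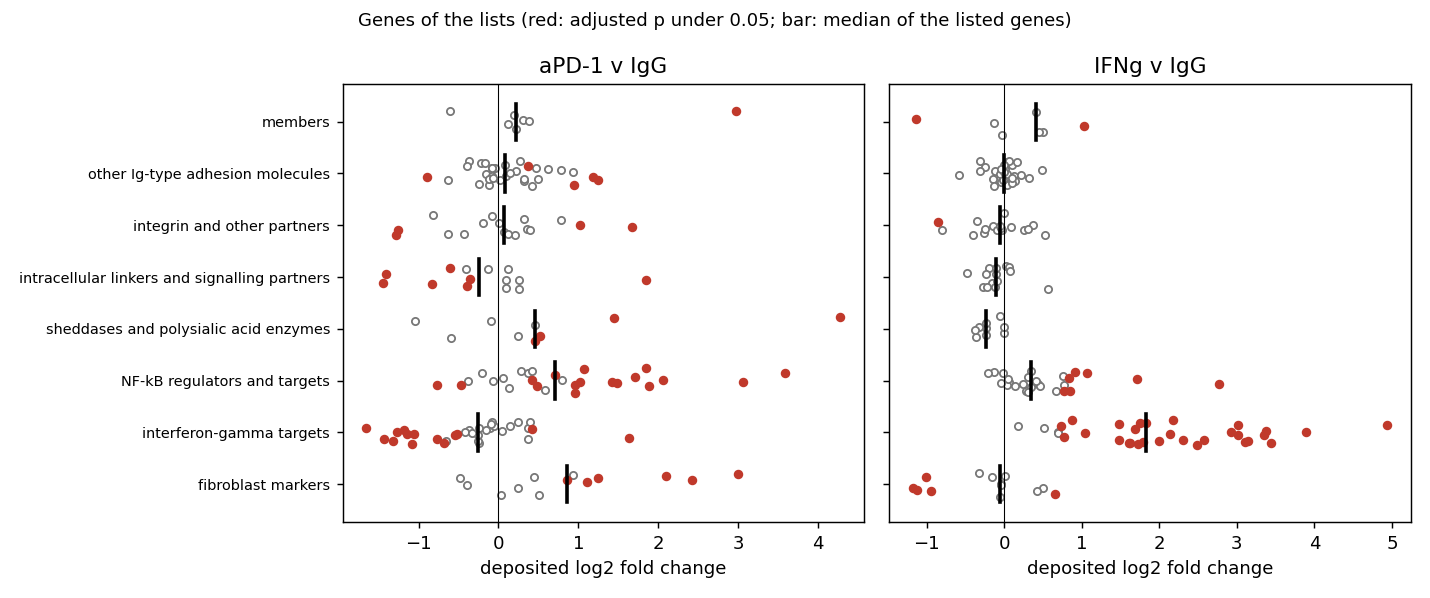
Deposited log2 fold changes (x axis) of single genes in 8 gene lists for aPD-1 v IgG and IFNg v IgG; each point is a gene and the bar is the list's median. The interferon-gamma targets had a median of 1.83 in IFNg v IgG and -0.25 in aPD-1 v IgG, and the NF-kB list a median of 0.71 in aPD-1 v IgG.

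The genes most like each member were found by the Euclidean distance over the 5 deposited log2 fold changes, among the 5705 or 5706 genes whose mean count reached 100 in all tables. For Ncam1 they were Igfbp4, an insulin-like growth factor binding protein, at a distance of 1.09, the collagen gene Col3a1 at 1.11, and Emilin1, an elastic fibre protein, at 1.67. The level of Igfbp4 was 299 in IgG, 3351 in aPD-1, 343 in aPD-1+CD8 and 248 in IFNg. For Vcam1 they were the class Ib MHC gene H2-M3 at 0.15, the RNA helicase gene Mov10 at 0.25 and the growth factor gene Gdnf at 0.32. For Alcam they were Tanc2 at 0.17, Crim1 at 0.21 and Ubash3b at 0.26. For Mcam they were Slc4a2 at 0.039, Slc30a9 at 0.047 and Bsdc1 at 0.051. Distances are small for a gene that changes little and large for one that changes much, so they are read only within a member. Icam1, L1cam and Nrcam had a mean count under 10 in at least 1 table and were left out.

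**Figure D4:**
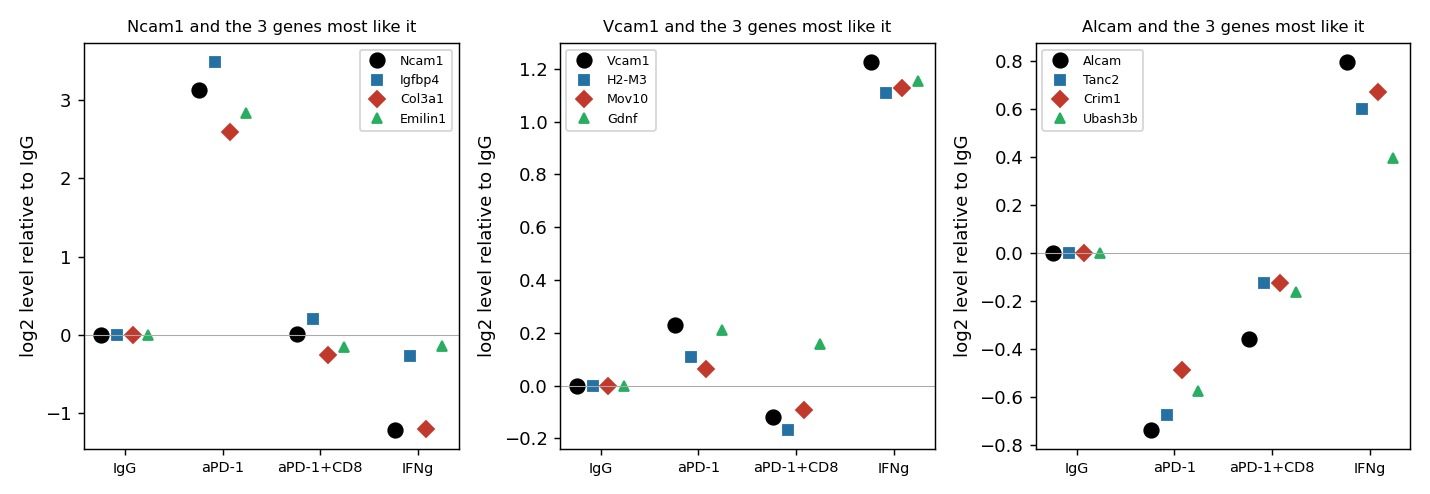
Log2 level relative to IgG (y axis) of Ncam1, Vcam1 and Alcam in the 4 groups, each with the 3 genes nearest to it over the 5 deposited log2 fold changes; each point is a group level with no error. Igfbp4, nearest to Ncam1, went from 299 in IgG to 3351 in aPD-1, beside 387 and 3394 for Ncam1.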

How the data were processed

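RNA was measured by exome-capture sequencing in 12 samples, grouped by the treatment in their labels. The authors deposited 5 comparison tables made with DESeq2 on mm9, per the submitters' processing notes; the sources used here name no aligner, counter or strand setting. Per the file headers, the deposited values are a mean normalized count (a signal averaged over both groups), the log2 fold change and its error, the Wald score, and p-values before and after adjustment. The deposited fold changes look shrunken toward 0, most of all in aPD-1+CD8 v IgG, so sizes are not comparable between tables. The tables hold 0 columns of single samples, so library depth is unknown and the deposited standard error is the only precision given. That error is not comparable between tables either. Over genes with a mean count under 10 its median was 0.022 in aPD-1+CD8 v IgG and 0.27 in aPD-1 v IgG.

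Nothing was refitted: a gene was called at an adjusted p under 0.05. The members, lists and tests were chosen with earlier results of these data known. Group levels were solved from the deposited mean counts. The planned solution used them as deposited, but the tables differed in scale and it gave a negative level of -54.0 for Ncam1 in IFNg. Each table was therefore divided by its scale, the median ratio to the geometric mean of the 5 tables over the 5706 genes whose mean count reached 100, a change made after seeing the data. Named genes were the members, up to 4 called genes of smallest adjusted p per list, binding partners, and its 3 nearest genes for each member whose mean count reached 10 in all tables. Some marker genes, Tubb3, Sox10, Pecam1, Eng, Csf1r, Epcam and Krt8 among them, and Mmp9, Bace1 and Plau were named after their values were seen. Some genes of the lists are not reported here by name. Promoters were credited to RefSeq (GRCm38.p6), and GENCODE M21 was used for the names of overlapping genes only. Python 3.11.15, numpy 2.4.6, pandas 2.3.3 and scipy 1.17.1 were used, and the level solution was tested on simulated data. The alternatives were a stricter threshold, a minimum change, 2 filters on mean count, an empirical null and other ways to the levels and fold changes.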

Additional observations from a re-analysis of the deposited data

How the results depend on the processing

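Of the 7 called changes of members, 0 reversed sign under the alternative ways to the fold change, although unscaled tables gave no ratio for Ncam1 in the 2 IFNg comparisons, where its level was -54.0. All 4 Ncam1 calls and the Vcam1 call in IFNg v IgG passed under all 5 alternative call rules. In IFNg v aPD-1, the 3 called members became 1, Ncam1, when scores were set against their own robust SD of 1.57; Alcam was also lost at an adjusted p under 0.01 and without the filter on low mean counts, and Vcam1 under a minimum log2 change of 1. The cause was not tested. With unscaled tables the log2 ratio for Ncam1 was 2.44 in aPD-1 v IgG, -4.84 in aPD-1+CD8 v aPD-1 and -2.40 in aPD-1+CD8 v IgG, where scaled levels gave a 1.01-fold ratio. Through a shared group, 29 of the deposited fold changes of members moved by less than their error and 6 by more. Leaving out a library was not run, and no paired analysis was possible because the tables hold no columns of single samples. Counts near 1, as for L1cam and Nrcam, limit what can be read.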
